A study of Mus musculus with 583 samples.

Results

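The 157 cells described here are single J1 cells whose RNA was copied and sequenced with Smart-seq2, 80 cells in replicate library A and 77 in replicate library B. They were chosen by the library name alone and are 157 of the 583 cells of the study. The study set 6 single-cell RNA-seq methods against one another, with a pair of libraries per method, A and B, and so 12 libraries in all. Every cell came from J1, a male line of mouse embryonic stem cells, and all were grown in 2i/LIF, a medium with the cytokine LIF and inhibitors of the kinases MEK and GSK3. The labels give no treatment, no second genotype and no separate cultures for A and B, so the spread between A and B may be purely technical. The question here is how the cells of a single culture condition differ from one another, and which genes rise and fall together across them. A pattern was called only where it held in replicate A and in replicate B.

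Smart-seq2 copies messenger RNA along its length from lysed single cells, without molecular identifiers, so its counts are reads and not molecules. In 2i/LIF, mouse embryonic stem cells are held in the ground state of pluripotency, in which the naive transcription factors Nanog, Klf4, Esrrb, Tfcp2l1 and Zfp42 support self-renewal around the core factors Pou5f1 and Sox2. Cells in this medium divide quickly and without synchrony, and a population of them holds cells in every phase of the cell cycle. Genes that answer a shared regulator (p53, HIF, ATF4, SREBP2, the ER stress sensors or the cell-cycle machinery) can then differ together from cell to cell.

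The libraries were alike in depth. Cells of A held 411792 to 569369 reads (median 493394) and cells of B 117785 to 543282 reads (median 475631), spike-ins included. The median cell had reads in 9095 genes in A and 9080 genes in B, of 38924 mouse genes listed. Reads of the mitochondrial genome made up 2.85% of gene reads in the median cell of A and 2.78% in that of B, and spike-in RNA made up 10.6% and 8.04% of all reads. 12 cells (3 of A, 9 of B) lay more than 3 median absolute deviations from their library's median in reads, genes seen or mitochondrial share. These 12 cells stayed in, apart from those with few spike-in reads in the comparison with spike-ins. Counts that lead a result are also given without the 12 cells. 4 cells of B (positions A5, A6, E8 and H4) had 244 to 1400 spike-in reads, and in these Slc34a2 took 13.4% to 28.3% of the gene reads. Levels are in CPM, the reads of a gene scaled to the cell's total of gene reads. Gm42418 separated the libraries, with a median of 3052 CPM in A and 58261 CPM in B. 66 plate position names occur in both libraries. They name positions and show no shared cell.

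The cells carried the markers of their label. All 41 naive and core pluripotency genes of the list had reads in both libraries, and their summed level was 10101 to 19133 CPM in A (median 14817) and 6481 to 19469 CPM in B (median 13895). No 2-cell-like gene reached a mean of 10 CPM, and Zscan4 genes had reads in 4 of 80 cells of A (exact 95% interval 1.38% to 12.3%) and in 1 of 77 cells of B (0.0329% to 7.03%). All 14 primitive endoderm markers had reads in A, and Gata6, Gata4, Sox17 and Foxa2 were at 0 in B. The summed level of that list was 23.2 to 1208 CPM in A (median 327) and 0 to 1162 CPM in B (median 273), and 35 of 80 cells of A and 24 of 77 cells of B held at least 3 of its genes at 10 CPM or more. Of the fibroblast markers, Lum, Dcn and Postn were at 0 in both libraries, and the summed level of that list (median 638 CPM in A, 533 CPM in B) came mostly from Fn1, with a mean of 468 CPM in A and 437 CPM in B, and Vim, with 188 and 152 CPM. At least 3 fibroblast genes were at 10 CPM or more in 21 cells of A and 14 of B. For the trophectoderm list this held in 32 cells of A and 25 of B, and for the germline list in 67 and 61. It held in 5 and 2 cells for the neural list and in 2 and 1 for the mesendoderm list.

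Variation was measured as the coefficient of variation (SD over mean across cells, CV) of CPM, and set against a trend of the squared CV on the mean. Spike-in RNA, added in the same amount to every cell, gives the spread of the measurement. Among features with a mean of 100 to 300 reads the median CV of genes was 0.356 in A and 0.352 in B, against 0.187 and 0.227 for spike-ins. Among those with 300 to 1000 reads it was 0.263 and 0.266 for genes, against 0.173 and 0.173 for spike-ins. Among those with 30 to 100 reads it was 0.533 and 0.523 for genes, against 0.404 and 0.50 for spike-ins, and among those with 10 to 30 reads 0.84 and 0.828, against 0.645 and 0.607. The median gene thus spread more than the median spike-in in each range, by little in B between 30 and 100 reads. From the lowest range to the highest, 58.9%, 70.4%, 67.1% and 92.4% of genes in A lay above the most variable spike-in. In B the shares were 20.2%, 7.62%, 83.9% and 21.6%, so most genes of B lay above it only between 100 and 300 reads. The ranges held 12, 8, 8 and 4 spike-ins in A and 13, 5, 7 and 4 in B, and a single spike-in of these sets each share. The values of B are of 74 cells with at least 1000 spike-in reads. A gene's residual is log2 of its squared CV minus the trend, so that 1 unit is a doubling of the squared CV.

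650 of 8314 tested genes (7.82%) were more variable across cells than the trend in both libraries, and 716 (8.61%) were less variable. The test was limma on the residuals of the 4 full-length libraries, with Benjamini-Hochberg adjustment over all tested genes and a threshold of 0.05. A gene's residual in A and its residual in B correlated at a Spearman rho of 0.73 over these genes, as a description. Fewer genes passed with a single Smart-seq2 library in the fit, 101 more variable and 217 less variable without A, 108 and 203 without B. Without the 12 cells that lay far from their library, 714 and 734 passed.

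**Figure D1:**
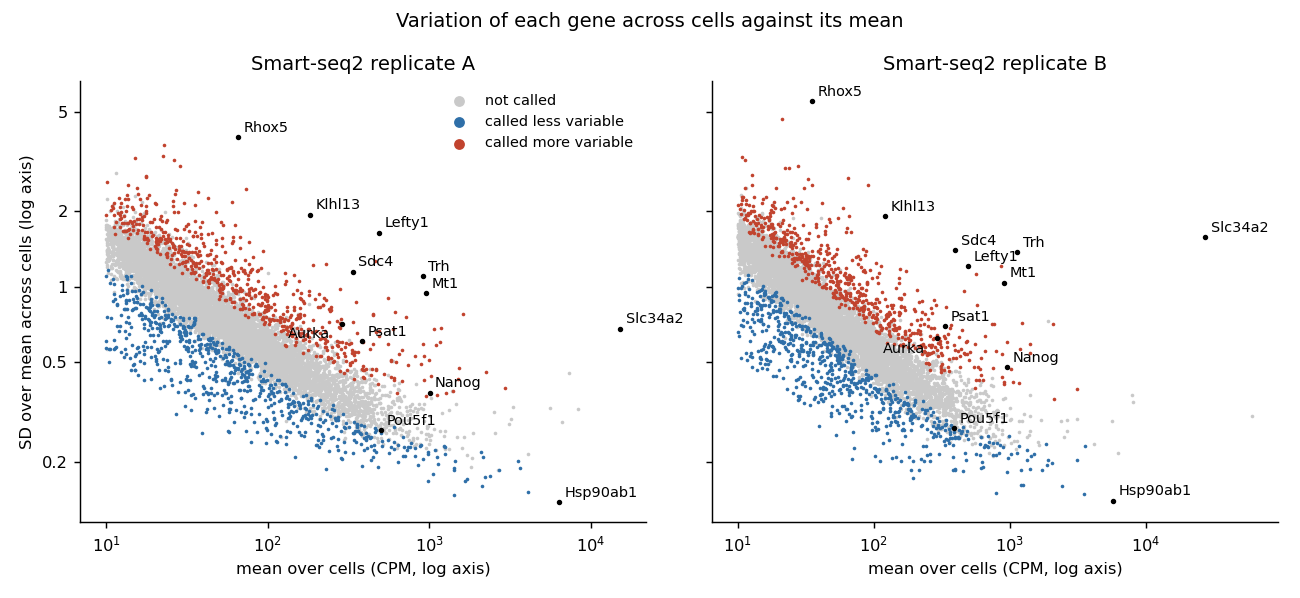
Each point is a gene, with its mean over cells in CPM on the horizontal axis and its SD over mean on the vertical axis (both log axes), in replicate A at left and replicate B at right. Red and blue points are the 650 genes called more variable and the 716 called less variable, grey points the others, and black points are named genes such as Rhox5, far above the trend, and Hsp90ab1, far below it, in both libraries.

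Some of the genes furthest above the trend were without reads in many cells and high in others. Rhox5, an X-linked homeobox gene of the germline and placenta (ENSMUSG00000095180, chromosome X, 37804842 to 37808876, plus strand, GRCm38), had reads in 22 cells of A and 16 cells of B. Its level ran from 0 to 1564 CPM in A and from 0 to 1425 CPM in B, with a median of 0 in both. Its mean residual was 5.22 (SE 0.80, limma with Benjamini-Hochberg adjusted p = 0.00136). Lefty1, a secreted inhibitor of Nodal signalling (ENSMUSG00000038793, chromosome 1, 180935022 to 180938400, plus strand), ran from 0 to 3860 CPM in A (median 130) and from 0 to 2315 CPM in B (median 227), with a mean residual of 4.15 (SE 0.44, limma adjusted p = 0.000171). Its relative Lefty2, beside it on chromosome 1, ran from 0 to 2438 CPM in A (median 250) and from 0 to 2821 CPM in B (median 276). The levels of both Lefty genes thus ran from no reads to many times the median in each library. 25.7% of the 31-base words of Lefty1 transcripts also occur in Lefty2, so some reads of the pair could have been split or shared in counting.

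Trh, which encodes the precursor of thyrotropin-releasing hormone, ran from 19.4 to 6011 CPM in A (median 490) and from 0 to 12912 CPM in B (median 830), with a mean residual of 4.12 (limma adjusted p = 0.00239). Sdc4, a cell-surface heparan sulfate proteoglycan, had medians of 157 CPM in A and 236 CPM in B with highest cells at 1834 and 3236 CPM. Mt1, a metallothionein that binds zinc and copper, ran from 2.07 to 4943 CPM in A (median 675) and from 2.28 to 4622 CPM in B (median 574). Each of these genes was on in nearly every cell, and its highest and lowest cells stood far apart. The serum- and glucocorticoid-induced kinase gene Sgk1 was of the same kind, with 10.2 to 2584 CPM in A (median 391) and 0 to 2868 CPM in B (median 359).

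The other genes among the 15 furthest above the trend were Klhl13, an adaptor of a ubiquitin ligase, Dqx1, Chac1, an enzyme that breaks down glutathione, Trpm1, a cation channel, Myl9, a myosin light chain, Plk2, a polo-like kinase, Ndufa4l2, a hypoxia-inducible mitochondrial protein, and mt-Rnr1, the small ribosomal RNA of mitochondria. Their mean residuals lay between 3.07 and 4.03. Chac1 had reads in 21 cells of A and 16 of B, and Myl9 in 23 and 24, with highest cells between 432 and 764 CPM. Lefty1, Lefty2, Mt1, Trpm1, Plk2, mt-Rnr1 and Sgk1 kept their call without A and without B. Klhl13 lost it without A (limma adjusted p = 0.0932), and Rhox5, Trh, Dqx1, Chac1, Sdc4, Myl9 and Ndufa4l2 lost it when either library was left out, with adjusted p of 0.0549 to 0.827. By the variance of log2(CPM + 1), the calls of Rhox5, Trh, Klhl13, Chac1, Lefty2, Sdc4, Mt1 and Myl9 were lost. Without the 12 far cells all 15 stayed called, but the mean residual of mt-Rnr1 dropped to 1.66, against 3.07 with them.

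**Figure D2:**
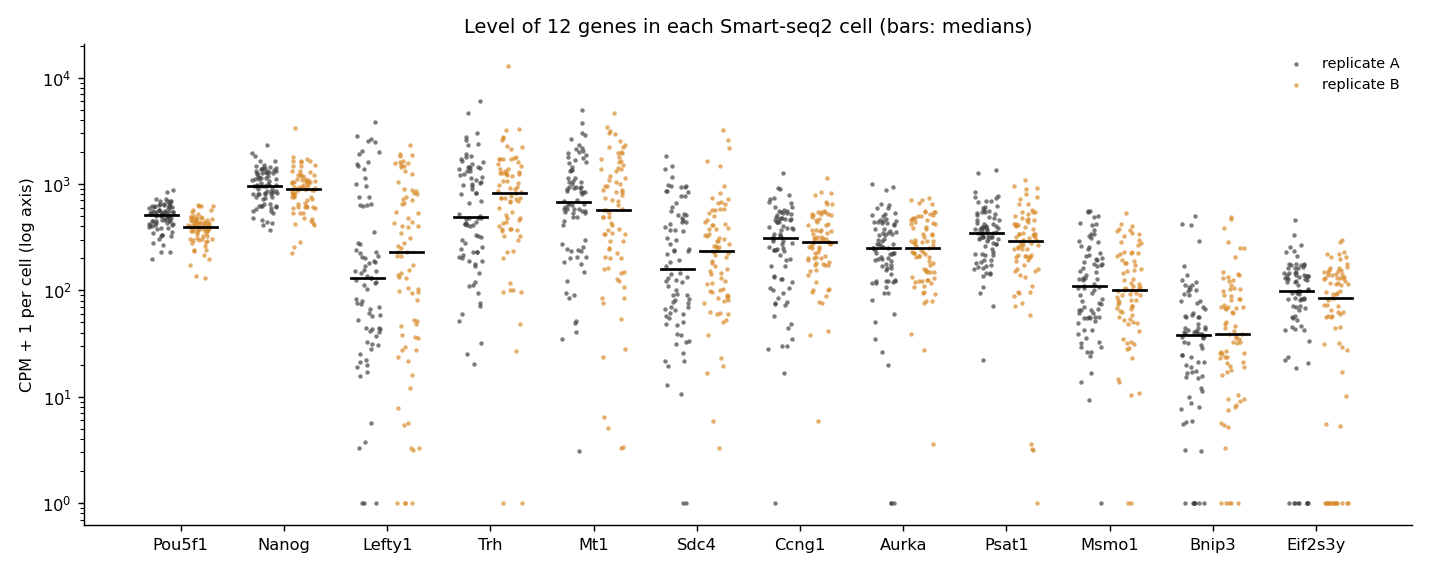
Each point is a cell, with its level of 1 gene in CPM + 1 on a log axis, for 12 genes in replicate A (dark) and replicate B (orange), and bars are medians. Pou5f1 forms the narrowest cloud in both libraries, at 198 to 877 CPM in A and 130 to 638 CPM in B, and Lefty1, Trh, Mt1 and Sdc4 spread widely, Mt1 from 2.07 to 4943 CPM in A.

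The core factors lay near or below the trend, and the naive factors varied unequally. Pou5f1 was seen in every cell, at 198 to 877 CPM in A (median 508) and 130 to 638 CPM in B (median 397), with a CV of 0.267 in A and 0.273 in B. Its mean residual of -0.68 did not pass (limma adjusted p = 0.0662), but passed as less variable without the 12 far cells (-0.79, adjusted p = 0.0385). Sox2 lay on the trend (0.06, adjusted p = 0.891), and so did Esrrb (-0.15, adjusted p = 0.747). Nanog was also seen in every cell, at 367 to 2341 CPM in A (median 966) and 226 to 3384 CPM in B (median 900.5), and was more variable than the trend (1.04, limma adjusted p = 0.0409). Zfp42, also called Rex1, ran from 233 to 1938 CPM in A and from 63.3 to 2045 CPM in B, and passed with the same mean residual of 1.04 (limma adjusted p = 0.0146). Both calls were lost when either library was left out, at adjusted p of 0.141 and 0.60 for Nanog and 0.279 and 0.269 for Zfp42, and that of Nanog also with both libraries in, at 0.0543 with genes from a mean of 5 CPM and 0.0685 by the variance of log2(CPM + 1). Klf4 had reads in 78 cells of A and 69 of B, with medians of 47.7 and 29.5 CPM, and did not pass (0.58, limma adjusted p = 0.128).

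Of the 38 tested genes of the naive and core list, 13 were more variable and none less variable, against 7.82% and 8.61% of all tested genes. The most variable of them was Spp1, a secreted phosphoprotein, at 176 to 3531 CPM in A (median 951) and 83.0 to 4088 CPM in B (median 1109), with a mean residual of 1.97. Of 9 tested genes of the primed and formative list, 7 were more variable. They included the de novo DNA methyltransferase genes Dnmt3a (mean residual 1.33) and Dnmt3b (1.75), the Wnt effector Lef1 (2.60) and the ETS factor Etv4 (1.47). Of 6 tested germline genes 5 were more variable, among them Tex19.1 at 2.10. Of 13 tested genes of the Nodal pathway, 6 were more variable and none less.

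Several stress, metabolic and cell-cycle lists also held many variable genes, where 7.82% of all tested genes were more variable and 8.61% less variable. 20 of 27 tested genes of the amino-acid stress response, 17 of 25 of glycolysis and hypoxia, 11 of 22 p53 targets, 10 of 23 genes of cholesterol synthesis and 25 of 62 G2/M genes were more variable than the trend. Other such lists held fewer, with 4 of 20 genes of the unfolded protein response and 8 of 50 G1/S genes. Among 17 heat shock genes, 1 was more variable and 4 were less variable. Housekeeping lists were at the other end. 64 of 77 cytosolic ribosomal protein genes, 29 of 78 nuclear genes of oxidative phosphorylation, 17 of 73 mitochondrial ribosomal protein genes and 10 of 36 proteasome genes were less variable, and 2, 1, 0 and 0 of them were more variable. Atp5b, a subunit of ATP synthase, ran from 2520 to 5729 CPM in A (median 4131) and from 1931 to 4594 CPM in B (median 3557), a CV of 0.151 in A and 0.149 in B. The chaperone gene Hsp90ab1 had the lowest residual of the named genes (-2.11, limma adjusted p = 0.000163), with a CV of 0.138 in A and 0.140 in B.

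Covariation was described by the Spearman correlation over the cells of each library, for 8311 genes and 34532205 pairs. Cells of a library share its preparation, and their depth and composition can enter every correlation, so these values carry no p. 2376 pairs (0.00688%) reached a correlation of 0.4 or more in A and in B, and 223 (0.000646%) lay at -0.4 or below in both. In a single library many more pairs passed, 21210 in A and 36344 in B on the positive side. Of the 21210 pairs chosen in A, 80.4% had a positive correlation in B (53.4% of all pairs did) and 11.2% were past 0.4 there, with a median of 0.148. Most pairs past 0.4 in a single library were therefore not past it in the other.

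The called pairs joined 880 genes, 150 of which had at least 10 partners, into 51 linked groups. The largest held 741 genes, and a division of it by network modularity, chosen after the values were seen, gave 22 sets. 18.4% of the called positive pairs were on a shared chromosome, against 5.52% of all pairs, and 3.83% included a pseudogene, against 1.58%. With reads per cell, genes seen, spike-in share and mitochondrial share regressed out, 1567 positive pairs were called, among them 1215 of the 2376. Without the 12 far cells 2428 positive pairs were called, among them 1877 of the 2376, and 466 negative ones. After thinning cells to 100000 reads 993 positive pairs were called, among them 842 of the 2376 (35.4%), so most of the called pairs were not called at that depth.

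The mitotic program held more called pairs than any other list. Of 1891 pairs among the 62 tested G2/M genes, 195 (10.3%) were called, and the mean correlation was 0.229 in A and 0.218 in B, against 0.00405 and 0.0108 over all pairs. Aurka, the mitotic kinase Aurora A, had 42 positive partners, Ube2c, the ubiquitin-conjugating enzyme that works with the anaphase-promoting complex, had 36, and Plk1, the polo-like kinase of mitotic entry, had 33. Aurka and Plk1 correlated at 0.83 in A and 0.76 in B, Aurka and Ube2c at 0.77 in both, and Ube2c and Plk1 at 0.79 and 0.72. Aurka ran from 0 to 998 CPM in A (median 247) and from 2.62 to 732 CPM in B (median 247), so cells with almost none and cells far above the median stood side by side in each library. Ube2c ran from 2.03 to 1563 CPM in A (median 359) and from 12.9 to 1212 CPM in B (median 361). Cyclin B1 (Ccnb1), with 25 partners, correlated with the cyclin F gene Ccnf at 0.56 in both libraries. The mean G2/M level of a cell correlated with the number of genes seen in it, at 0.46 in A and 0.42 in B, and with covariates removed the mean correlation within the list was 0.184 in A and 0.198 in B.

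The promoters of mitotic genes carry a cell-cycle homology region, through which their genes are repressed outside G2 and M phase. The letters TTTGAA, on either strand, were in the RefSeq promoter window (250 bases before to 50 after the start, build GRCm38.p6) of 38 of 55 G2/M genes with a window (69.1%), against 20.2% of all 27025 genes with one. The windows of the 3 most connected holders are shown because their genes carry the tightest mitotic pairs, with the match in capitals. A match is a description of letters and not a shown binding site.
Aurka, chr2:172370521-172370820, minus strand: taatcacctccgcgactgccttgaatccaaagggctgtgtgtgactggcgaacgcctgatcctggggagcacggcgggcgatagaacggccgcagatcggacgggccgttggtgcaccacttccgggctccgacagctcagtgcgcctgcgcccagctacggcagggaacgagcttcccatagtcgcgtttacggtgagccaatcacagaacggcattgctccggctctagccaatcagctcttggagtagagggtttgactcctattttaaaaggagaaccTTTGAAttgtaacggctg
Ube2c, chr2:164769679-164769978, plus strand: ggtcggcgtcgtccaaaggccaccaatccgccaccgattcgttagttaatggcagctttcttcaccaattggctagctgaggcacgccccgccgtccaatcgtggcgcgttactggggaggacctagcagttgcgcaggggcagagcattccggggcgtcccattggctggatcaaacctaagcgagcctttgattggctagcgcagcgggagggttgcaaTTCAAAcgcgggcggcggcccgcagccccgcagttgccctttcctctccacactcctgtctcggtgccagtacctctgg
Plk1, chr7:122159185-122159484, plus strand: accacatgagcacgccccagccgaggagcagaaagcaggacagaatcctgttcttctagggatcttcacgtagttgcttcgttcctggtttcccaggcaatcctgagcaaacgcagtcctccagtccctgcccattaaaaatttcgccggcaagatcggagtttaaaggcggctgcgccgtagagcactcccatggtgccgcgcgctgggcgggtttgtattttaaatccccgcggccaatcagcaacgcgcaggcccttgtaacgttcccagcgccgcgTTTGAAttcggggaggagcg
Counted from the start base as 0, the match began at position 32 in Aurka, -29 in Ube2c and 30 in Plk1, close to the start in each, and in Ube2c it lay on the opposite strand.

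G1/S genes varied together less tightly. 12 of 1225 pairs among 50 G1/S genes were called, and 8 genes were more variable than the trend. Cyclin E1 (Ccne1), which drives entry into S phase, ran from 4.35 to 1161 CPM in A (median 427) and from 73.2 to 1330 CPM in B (median 393), with a mean residual of 1.66 (limma adjusted p = 0.00157). Pcna, the sliding clamp of DNA replication, was less variable than the trend (-0.83, limma adjusted p = 0.0321), at 66.3 to 340 CPM in A and 23.7 to 302 CPM in B. It formed a linked group of 7 genes with the replication and repair genes Rfc3, Slbp, Tipin, Chaf1b and Ung and its processed copy Pcna-ps2. Pcna-ps2 is a near-identical copy, and 23.3% of the 31-base words of Pcna occur in other genes, so their correlation of 0.64 in A and 0.70 in B is uncertain. Single pairs of S-phase and mitotic genes were negative, while the mean levels of the G2/M and the G1/S list correlated at -0.30 in A and -0.21 in B, not past the threshold. Ung, an enzyme that removes uracil from DNA, and Aurkb, the Aurora B kinase, correlated at -0.53 in A and -0.50 in B, and Pcna and Aurka at -0.50 and -0.40. Slbp, which binds the stem-loop of histone messengers, and Aurkb were at -0.48 in both libraries. The nuclear RNA Malat1 was on the mitotic side, at -0.52 and -0.58 with Pcna and -0.50 and -0.51 with Ccne1, and at 0.51 and 0.56 with the condensin gene Smc4.

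**Figure D3:**
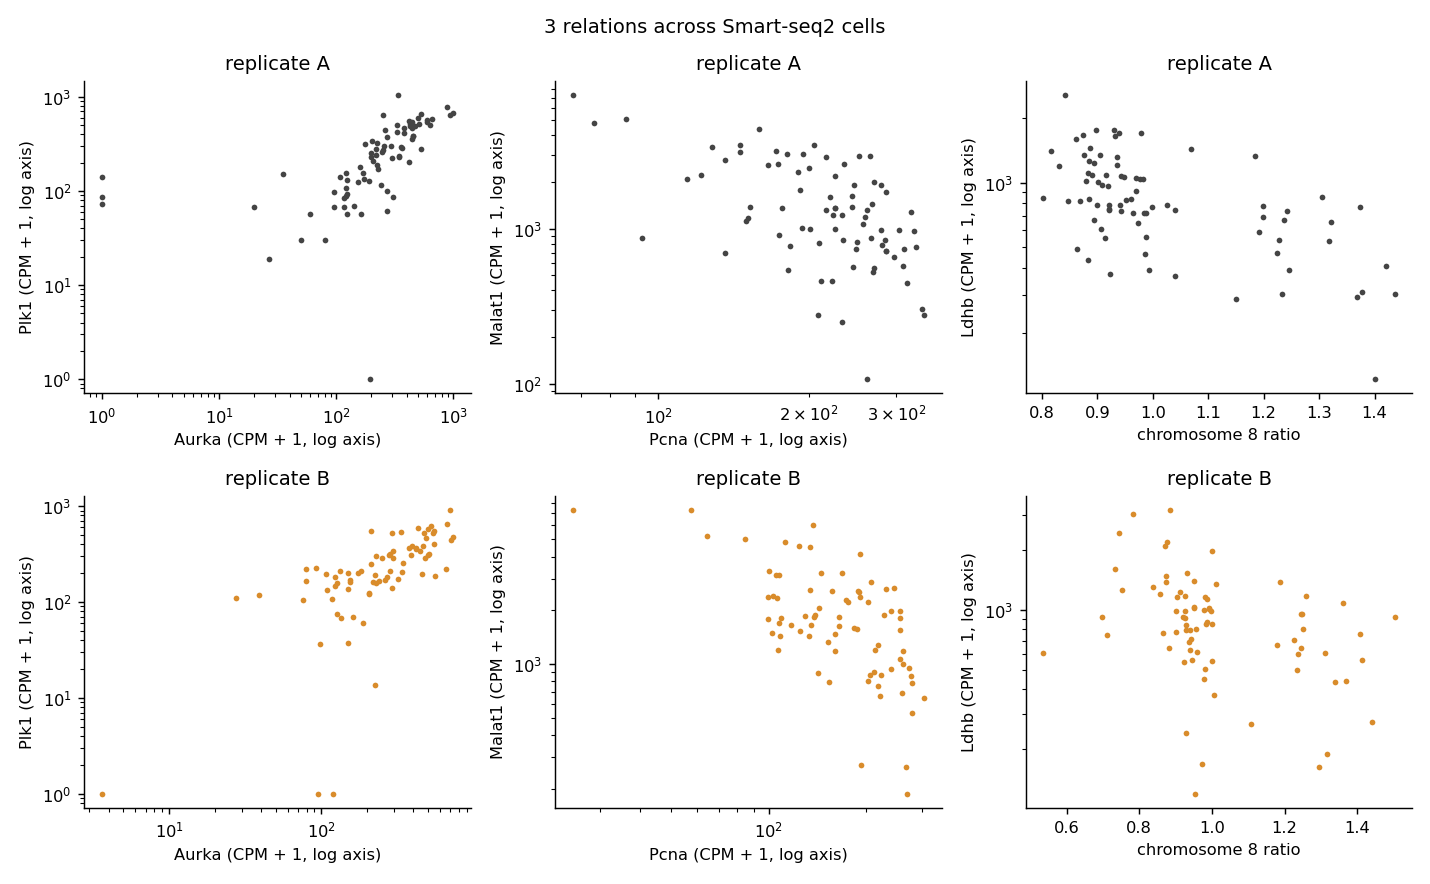
Each point is a cell, with replicate A in the upper and replicate B in the lower row. From left to right, Plk1 rises with Aurka, Malat1 falls with Pcna (CPM + 1, log axes), and Ldhb falls with the cell's chromosome 8 ratio, in both libraries.

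p53 targets formed the second annotated set. Of 231 pairs among 22 tested targets, 29 (12.6%) were called, with a mean correlation of 0.211 in A and 0.20 in B. Ccng1, cyclin G1, had 36 positive partners, and Phlda3, an inhibitor of AKT signalling, had 26. Partners were not limited to the list, and Sdc4, which is not a gene of the list, also had 36. The helicase gene Dhx16, named here as a partner, correlated with Ccng1 at 0.74 in A and 0.70 in B. Sdc4 and Trp53inp1, a nuclear stress protein induced by p53, correlated at 0.66 in both. Mdm2, the ubiquitin ligase that degrades p53, correlated with Ccng1 at 0.56 and 0.51 and with Plk2 at 0.51 and 0.63. Ccng1 ran from 0 to 1269 CPM in A (median 310) and from 4.88 to 1141 CPM in B (median 286), with a mean residual of 1.76 (limma adjusted p = 0.000997). The messenger of p53 itself (Trp53) had no called partner and a residual of -0.66 that did not pass (limma adjusted p = 0.0761), at 571 to 1777 CPM in A and 378 to 1690 CPM in B. Targets of the list thus differed between cells together, and the Trp53 messenger was not among the variable or linked genes.

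Glycolysis and hypoxia genes held the highest share of called pairs among the lists with more than 20 tested genes. 74 of 300 pairs among 25 genes (24.7%) were called, with a mean correlation of 0.336 in A and 0.298 in B. Pfkl, the liver phosphofructokinase that commits sugar to glycolysis, had 28 partners, Bnip3, a hypoxia-induced protein of mitophagy, had 25, and Pkm, pyruvate kinase, had 24. Pkm and Eno1, an enolase, correlated at 0.78 in A and 0.76 in B, and Tpi1, triosephosphate isomerase, and Aldoa, an aldolase, at 0.82 and 0.76. Bnip3 and Pfkl correlated at 0.70 and 0.71. Bnip3 ran from 0 to 499 CPM in A (median 37.0) and from 0 to 489 CPM in B (median 37.7), and Pfkl from 39.1 to 1791 CPM in A (median 429) and from 85.4 to 1555 CPM in B (median 410). The lactate exporter gene Slc16a3 was the most variable of the list, with a mean residual of 2.78 (limma adjusted p = 0.00556). Eno1 and Pkm share 28.5% and 34.7% of their 31-base words with other genes, and their pairs with copies such as Eno1b (0.88 and 0.79) are uncertain. With covariates removed 23.0% of the list's pairs were called.

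HIF binds a core of ACGTG in the promoters of such genes. ACGTG on either strand was in the windows of 19 of 26 genes of the list (73.1%), against 21.8% of all genes with a window and 31.8% of the tested ones. The windows of Bnip3 and Aldoa, among the most connected holders, follow, with the matches in capitals.
Bnip3, chr7:138909457-138909756, minus strand: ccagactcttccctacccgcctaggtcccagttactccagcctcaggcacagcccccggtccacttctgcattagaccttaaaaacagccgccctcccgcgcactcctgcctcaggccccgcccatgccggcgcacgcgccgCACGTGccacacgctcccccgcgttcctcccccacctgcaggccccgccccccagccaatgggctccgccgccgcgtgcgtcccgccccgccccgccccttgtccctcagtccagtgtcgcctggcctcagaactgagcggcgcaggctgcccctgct
Aldoa, chr7:126799205-126799504, minus strand: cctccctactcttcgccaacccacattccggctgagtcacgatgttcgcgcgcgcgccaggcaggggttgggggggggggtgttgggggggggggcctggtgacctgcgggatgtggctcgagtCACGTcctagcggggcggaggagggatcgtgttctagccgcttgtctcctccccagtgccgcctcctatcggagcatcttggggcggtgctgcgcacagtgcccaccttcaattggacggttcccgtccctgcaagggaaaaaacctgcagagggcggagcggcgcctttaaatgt
In Bnip3 the 2 overlapping matches, 1 on each strand, spell CACGTG and begin at position -108. Aldoa has 2 windows, and the one shown holds a single match, on the opposite strand, at -126.

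The amino-acid stress response, run by the factor ATF4, raises genes for amino-acid synthesis, uptake and loading onto tRNA. 24 of 325 pairs among 26 genes (7.38%) were called, with a mean correlation of 0.194 in A and 0.174 in B. Psat1, an aminotransferase of serine synthesis, had 12 positive partners and ran from 21 to 1366 CPM in A (median 344) and from 0 to 1090 CPM in B (median 289). It correlated with Nars, the tRNA synthetase for asparagine, at 0.61 in A and 0.62 in B, and with Phgdh, the first enzyme of serine synthesis, at 0.54 and 0.56. Its other partners included the tRNA synthetase genes Sars, Gars, Aars and Mars, the 1-carbon enzyme gene Shmt2, Pycr1 of proline synthesis, Eif4ebp1 and Nupr1. These 12 are the genes linked to Psat1 and not a list of their own, and Asns, the asparagine synthetase of the same list, had none. Nars and mt-Nd5, a messenger of the mitochondrial genome, were at -0.50 and -0.51, while the mean level of the list correlated with the mitochondrial share of a cell at -0.42 in A and -0.26 in B, not past the threshold in B. Psat1 was also negative with the p53 target Trp53inp1, at -0.42 and -0.44, and Phgdh with Dhx16, at -0.47 and -0.60.

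The unfolded protein response raises chaperones of the endoplasmic reticulum. 11 of 190 pairs among 20 genes (5.79%) were called, and 4 genes were more variable than the trend. Hspa5, the chaperone BiP, ran from 26.5 to 3108 CPM in A (median 885) and from 49.3 to 2089 CPM in B (median 722), with a mean residual of 1.69 (limma adjusted p = 0.00133). Hspa5 and Hsp90b1, the chaperone GRP94, correlated at 0.69 in A and 0.72 in B. The partners of Hspa5 lay in a set of 18 genes with Calr, Pdia3, Pdia4, Pdia6 and Manf, all of the reticulum, and with splicing genes such as Srsf7.

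The windows of these stress genes differ in their letters. TGATGNAA, a core of the amino acid response element, was in 11 of 29 windows of the amino-acid list (37.9%), against 4.51% of all genes with a window. The ER stress element, CCAAT and CCACG with 9 bases between them, was in 8 of 19 windows of the unfolded protein response (42.1%), against 0.137% of all. Gars and Hspa5 are shown as holders with the most partners in each list, and Hsp90b1 as the partner of Hspa5, with both strands searched and matches in capitals.
Gars, chr6:55037751-55038050, plus strand: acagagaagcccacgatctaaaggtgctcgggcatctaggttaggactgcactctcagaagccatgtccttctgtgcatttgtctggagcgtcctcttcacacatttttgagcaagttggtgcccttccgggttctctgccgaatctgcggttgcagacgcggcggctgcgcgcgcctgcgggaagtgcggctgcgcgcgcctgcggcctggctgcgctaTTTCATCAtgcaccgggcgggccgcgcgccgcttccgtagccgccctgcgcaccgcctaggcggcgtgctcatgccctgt
Hspa5, chr2:34771840-34772139, plus strand: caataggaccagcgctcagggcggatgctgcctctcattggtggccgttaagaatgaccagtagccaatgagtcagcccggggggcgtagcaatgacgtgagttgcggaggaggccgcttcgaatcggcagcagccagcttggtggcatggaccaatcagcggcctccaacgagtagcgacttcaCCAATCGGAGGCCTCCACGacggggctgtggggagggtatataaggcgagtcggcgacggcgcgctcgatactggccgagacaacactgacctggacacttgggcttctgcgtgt
Hsp90b1, chr10:86705395-86705694, minus strand: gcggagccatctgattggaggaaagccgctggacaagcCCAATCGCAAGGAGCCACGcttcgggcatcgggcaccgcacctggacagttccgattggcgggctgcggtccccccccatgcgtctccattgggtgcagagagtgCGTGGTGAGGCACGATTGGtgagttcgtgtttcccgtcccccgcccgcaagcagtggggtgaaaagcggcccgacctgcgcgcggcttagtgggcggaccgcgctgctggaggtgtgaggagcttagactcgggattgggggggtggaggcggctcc
The match began at position -30 in Gars, on the opposite strand, and at -65 in Hspa5. Hsp90b1 held 2 matches, the first at -212 and the second, nearer the start, on the opposite strand.

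Cholesterol synthesis formed a linked group of its own. 37 of 253 pairs among 23 list genes (14.6%) were called, with a mean correlation of 0.232 in A and 0.218 in B. The group held 14 genes, led by Fdft1, the squalene synthase, with 12 partners, Insig1, a sensor that holds SREBP in the reticulum, and Msmo1, a sterol oxidase, with 11 each. Msmo1 and Insig1 correlated at 0.74 in A and 0.62 in B. The group also held the desaturase genes Scd1 and Scd2, which were joined to it by called pairs.

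Smaller sets were as sharp. Mt1 and Mt2, metallothionein genes side by side on chromosome 8, had the highest correlation of all pairs, 0.92 in A and 0.91 in B, and each was the other's sole called partner. Lefty1 and Lefty2 correlated at 0.58 and 0.79. Lefty1 also reached the threshold with Naaa, an enzyme of lipid amide breakdown, at 0.53 and 0.47. Trh was called with Gja1, the gap junction protein connexin 43, at 0.48 and 0.49. Etv4 and Spry4, a target and an inhibitor of FGF and MEK signalling, correlated at 0.53 and 0.61 although MEK is inhibited in this medium, with Etv4 at a median of 7.93 CPM in A and 7.35 CPM in B. The imprinted RNAs Meg3 and Rian, neighbours on chromosome 12, correlated at 0.51 and 0.48. The zinc finger genes Zfp534, Zfp990, Zfp984 and Zfp985 formed a group of 4 on chromosome 4. 3 histone genes, Hist1h1b, Hist1h2ae and Hist1h4d, formed a group on chromosome 13 with a mean correlation of 0.601 in A and 0.577 in B, and Cenpa, the centromeric histone, and Hist1h2ae were at -0.54 and -0.48.

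Naive pluripotency genes did not vary as a set by this measure. None of 703 pairs among 38 genes was called, and the mean correlation was 0.0481 in A and 0.0699 in B, above the mean of all pairs. Pou5f1, Sox2, Nanog, Esrrb and Klf4 had no called partner. The gene most like Nanog was Tfcp2l1, at 0.38 in A and 0.59 in B. Zfp42 had 2 called partners, of which Ncl was at 0.40 and 0.42. Dppa5a, an RNA-binding protein of stem cells, had 9 positive partners, and correlated with the interferon-induced membrane protein gene Ifitm1 at 0.62 and 0.64.

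Ifitm1 had 21 positive and 11 negative partners, the most negative partners of any gene. It ran from 9.71 to 1524 CPM in A (median 190) and from 13.1 to 1088 CPM in B (median 210), with a mean residual of 2.48 (limma adjusted p = 0.000123). Its positive partners included Ldhb (0.54 and 0.61), Bnip3 (0.48 and 0.56), Chchd10 (0.49 and 0.54) and Gpx4 (0.47 and 0.60), genes of lactate and mitochondrial metabolism, mitophagy and lipid peroxide repair. Its negative partners included Nip7 (-0.54 and -0.53), Utp4 (-0.52 and -0.52), Nifk (-0.48 and -0.43) and Ncl (-0.48 and -0.44), genes of ribosome assembly in the nucleolus. Nip7 was also negative with Bnip3, at -0.47 and -0.53. Of the 11 negative partners of Ifitm1, 4 lie on chromosome 8 (Nip7, Utp4, Lsm6 and Dnaja2) and 4 on chromosome 1 (Ncl, Nifk, Bzw1 and Hspd1), the chromosomes with the most called pairs within them. The part of these chromosomes' levels in the negative pairs was not tested.

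The set with the most connected genes was made of housekeeping messengers. Cfl1, which severs actin filaments, had 56 positive partners, Ran, the GTPase of nuclear transport, had 50, Eif5a, a translation factor, had 49, and Pfn1, which binds actin monomers, had 46. Actb and Cfl1 correlated at 0.76 in A and 0.74 in B. Ran was less variable than the trend (-0.83, limma adjusted p = 0.0344), with a CV of 0.216 in A and 0.233 in B for Ran, so strong covariation also occurred over a narrow range of levels. Ribosomal protein genes likewise covaried within little variation, with 72 of 2926 pairs called (2.46%) and a mean correlation of 0.154 in A and 0.103 in B. Genes of the mitochondrial genome, with messengers, ribosomal RNAs and transfer RNAs among the 12 tested, had 17 of 66 pairs called. Their mean correlation of 0.387 in A and 0.278 in B fell to 0.0257 and 0.0240 once the covariates, the mitochondrial share among them, were removed. The mitochondrial ribosomal RNAs mt-Rnr1 and mt-Rnr2 (0.91 and 0.83) were linked with Gm42418 and with Slc34a2 (0.43 and 0.42 with mt-Rnr1), the RNAs that stood out in the cells of low depth.

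**Figure D4:**
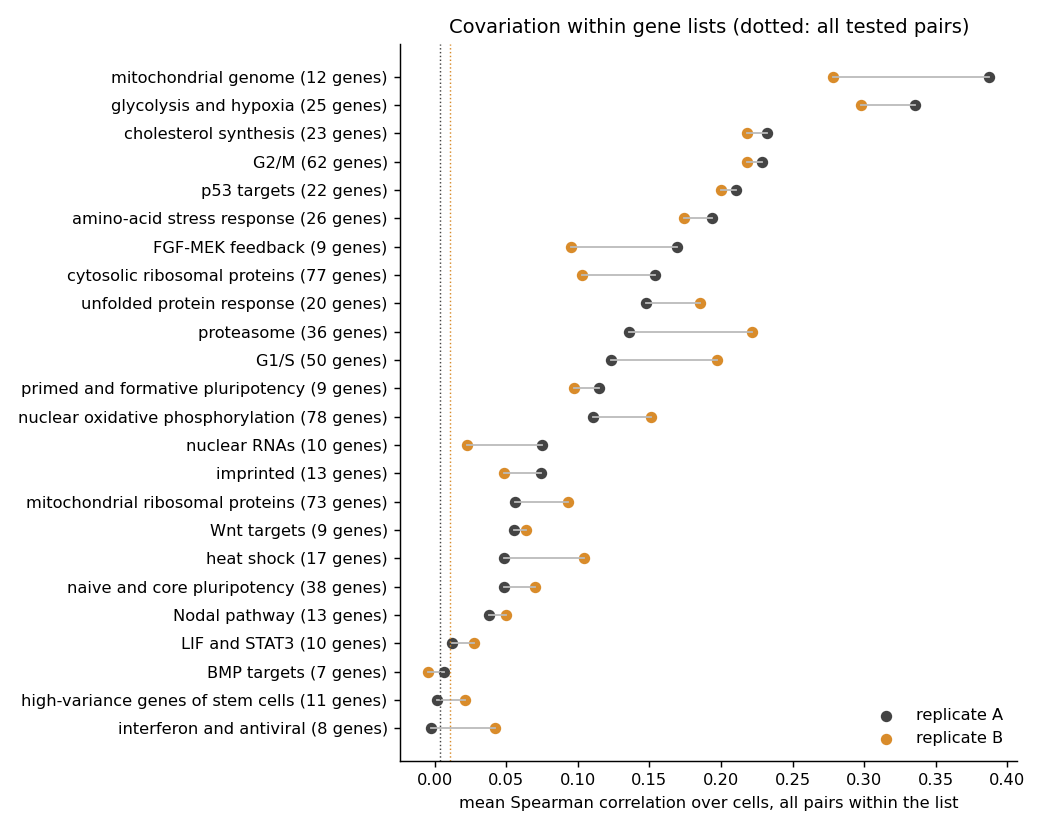
Each row is a gene list with the number of its genes tested for covariation, and points give the mean Spearman correlation over cells across all pairs of the list in replicate A (dark) and replicate B (orange). The dotted lines are the means over all tested pairs, 0.00405 in A and 0.0108 in B, and glycolysis and hypoxia, cholesterol synthesis, G2/M and p53 targets stand at 0.20 or above in both libraries.

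A share of the covariation followed chromosomes. 437 of the called positive pairs lay on a shared chromosome, 103 of them on chromosome 1 and 72 on chromosome 8. On chromosome 1, 0.0963% of all pairs were called and on chromosome 8 0.0665%, against 0.00688% of all tested pairs. A set of 94 genes led by Bzw1, Ncl, Ptma, Cfdp1 and Eloc held 36 genes of chromosome 8 and 35 of chromosome 1. Ncl, the nucleolar protein nucleolin, and Hspd1, a mitochondrial chaperonin, both on chromosome 1, correlated at 0.68 in A and 0.60 in B. Mcm5, a subunit of the replicative helicase, and Cfdp1, both on chromosome 8, correlated at 0.52 and 0.55. Not all partners share a chromosome. Mcm5 was called with Mcm2, a subunit of the same helicase on chromosome 6 and outside the set, at 0.47 and 0.52. Ncl was called with Gm9800, a pseudogene of chromosome 14, at 0.67 and 0.61. Gm9800 was also called with Ptma of chromosome 1, at 0.80 and 0.72, and correlated with the level of chromosome 1 (the ratio described below) at 0.41 and 0.45. 31.1% of the 31-base words of Ptma occur in other genes, so the pairs of Gm9800 are uncertain. 1939 positive pairs were on different chromosomes.

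The level of each chromosome in each cell was therefore set against its library. The ratio was the median, over the genes of a chromosome with a mean of at least 50 CPM, of a cell's level over the library median. A ratio at least 35% above or below 1 was listed, which 2.71% of the 3140 ratios were. 24 of 80 cells of A (30%, exact 95% interval 20.3% to 41.3%) and 23 of 77 cells of B (29.9%, 20% to 41.4%) had at least 1 such chromosome. Without the 12 far cells, 23 cells of A and 19 of B did. High ratios had a median of 1.41 in both libraries, and they fell on the same chromosomes in A and in B. Chromosome 1 was high in 9 cells of A and 6 of B, chromosome 8 in 6 and 6, chromosome 6 in 5 and 4, chromosome 11 in 4 and 4, chromosome 14 in 3 and 3 and chromosome 7 in 1 and 1. The 2 others were chromosome 19 in 1 cell of A and chromosome 18 in 1 cell of B. With summed reads in place of the median gene, 29 cells of A and 33 of B were listed, and the chromosomes shifted. Chromosome 8 was then high in 8 cells of A and 14 of B, chromosome 1 in 5 and 6, chromosome 5 in 5 and 6, and chromosome 7 in none. Ratios of different chromosomes were not independent, and correlated from 0.74 in A and 0.75 in B (chromosomes 4 and 5) to -0.35 and 0.04 (8 and X). Slc34a2 was at -0.4 or below in both libraries with the ratios of chromosomes 7, 10, 11, 15 and 17. The part of a cell's composition in the ratios was not tested. Divided by the cell's median over chromosomes, ratios listed 28 cells of A and 23 of B.

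Low ratios in A were fewer than high ones, 11 with a median of 0.544, and lay on 8 chromosomes, 1 and 6 among them. Cell C3 of A was low on chromosomes 1 (0.475), 3 (0.505), 13 (0.544) and 18 (0.571) and high on chromosome 6 (1.45). Cell D7 of A was low on chromosome 3 (0.510) and cell H12 of A on chromosome 4 (0.495). Mouse embryonic stem cell lines are known to gain and lose chromosomes in culture, and no DNA measurement is used here. B had 20 low ratios, and 14 of them came from cell A5, the cell with the fewest reads, whose ratios were 0.856 to 1.03 once divided by its own median over chromosomes. The other 6 included chromosome 5 in cell A2 (0.416), chromosome 2 in cell C4 (0.526) and chromosome 9 in cell G1 (0.511). Cell D3 of B had an X chromosome ratio of 0.120, which was uneven along the chromosome. It was 0.516 over the genes of the first part by position and 0.0402 over those of the second part. By summed reads it was 0.327.

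**Figure D5:**
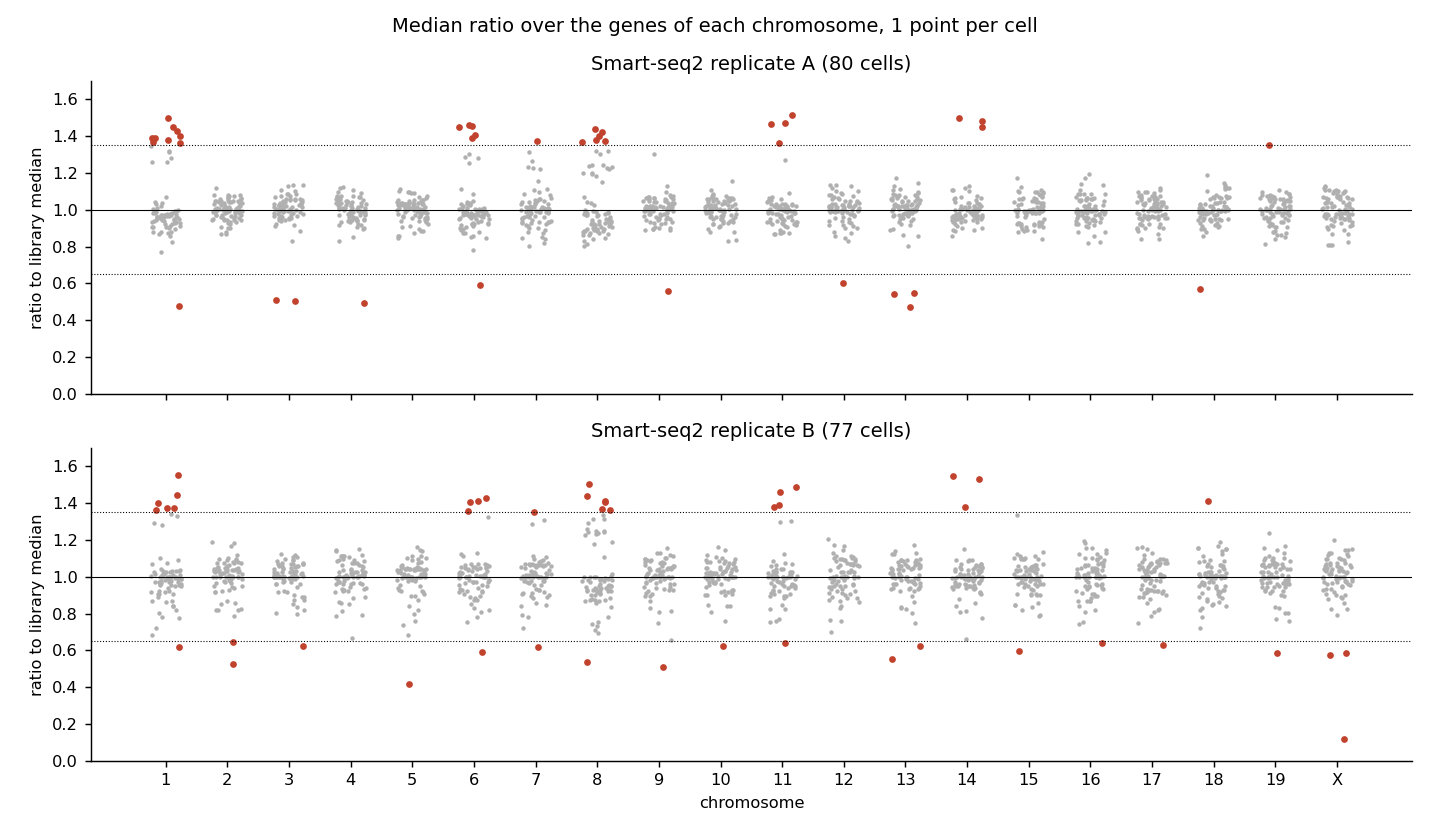
Each point is a cell, with the median ratio of its genes on 1 chromosome to the library median on the vertical axis and the chromosomes along the horizontal axis, in replicate A above and replicate B below. Red points are ratios past the dotted lines, 35% above and below 1, and are high on chromosomes 1, 6, 8, 11 and 14 in both libraries.

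Chromosome 8 had the widest middle range of ratios. Its ratio had a median of 0.946 in A and 0.957 in B, a lower quartile of 0.90 and 0.912 and an upper quartile of 1.09 and 1.18, so that its spread leaned to the high side. Of the 466 tested genes on chromosome 8, 32 (6.87%) correlated with the ratio at 0.4 or more in both libraries, which their own part in the ratio favours. Of 7845 genes elsewhere, 2 were positive (Cct7 and Tmsb10) and 3 negative. Ldhb, the lactate dehydrogenase subunit of oxidative tissues, was at -0.57 in A and -0.42 in B, Bnip3 at -0.49 and -0.42 and Aldoc, an aldolase, at -0.44 and -0.44. Ldhb ran from 120 to 2547 CPM in A (median 787) and from 119 to 3168 CPM in B (median 852). The number of listed chromosomes in a cell was negative with Bnip3 (-0.43 and -0.46), Eno1 (-0.48 and -0.41), Pkm (-0.44 and -0.40), Chchd10 (-0.44 and -0.45), Slc25a5 (-0.47 and -0.44) and Gpx4 (-0.41 and -0.41). The mean level of the glycolysis and hypoxia list was at -0.61 in A and -0.41 in B with that number, and that of the p53 targets at 0.03 and -0.10. Cells with more listed chromosomes thus had less messenger of glycolysis and hypoxia genes, and the values for p53 targets lay near 0.

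Y-linked messengers were missing from some cells. J1 is a male line, and the summed level of Eif2s3y, Ddx3y, Uty and Kdm5d had a median of 213 CPM in A and 174 CPM in B. 7 of 80 cells of A (8.75%, exact 95% interval 3.59% to 17.2%) and 9 of 77 cells of B (11.7%, 5.49% to 21%) had no read of any of them. Without the 12 far cells there were 7 and 6. The cells of A without a read held at least 415414 gene reads, where the median cell of A held 92.5 reads of these genes. Eif2s3y, a subunit of a translation initiation factor, and Ddx3y, an RNA helicase, were both more variable than the trend (0.95 and 1.24, limma adjusted p = 0.0158 and 0.012).

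With the main settings, no test told the Smart-seq2 cells from those of the other methods. Some other settings called genes more variable in Smart-seq2, 1 at 5000 counts and 4 with a mean of at least 0.5 counts. With all cells thinned to 10000 counts, which matches totals but not reads to molecules, 0 of 2646 genes were called more variable and 0 (0%) less variable in Smart-seq2 than in the mean of the other 5 methods (limma, Benjamini-Hochberg), while 109 had an unadjusted p under 0.05. Trh had the smallest p, with residuals of 2.59 and 2.97 in the Smart-seq2 libraries against a mean of 0.83 in the other 10 (limma adjusted p = 0.111). The likeness of cells, as the median Spearman correlation between cells, was 0.448 in Smart-seq2 and 0.440 in the other libraries (0.389 to 0.481), a difference of 0.00772 (exact two-sided permutation test over 12 libraries, p = 0.758, Benjamini-Hochberg adjusted over 3 values 0.758). The mean correlation among mitotic genes was 0.102 in Smart-seq2 against 0.0457 in the others (0.0116 to 0.138), with an exact permutation p of 0.0606 (adjusted 0.182). In cells not thinned, SD over mean of the gene reads per cell was 0.110 in Smart-seq2 against 0.277 in the others (0.0740 to 0.535), with an exact permutation p of 0.121 (adjusted 0.182). The smallest p that 2 against 10 libraries allow is 0.0152. The 2376 pairs called in Smart-seq2 had a median correlation of 0.185 and 0.235 in the CEL-seq2 libraries, 0.127 and 0.167 in Smart-seq / C1 and 0.0518 to 0.127 in the other 6 libraries, against 0.00596 to 0.0172 over all pairs in those 10. These medians are of cells at the depth of each library and were not compared by a test.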

How the data were processed

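The deposited table holds whole-number read counts per gene and cell, which the authors made with bcl2fastq and STAR 2.4.0 against mm10, per the submitters' processing notes. Other counting settings are not given in the sources used here. Smart-seq2 counts are reads without molecular identifiers. The exact intervals are binomial, take the cells of a library as independent draws, and leave out the spread between libraries. Of 38924 gene identifiers, 37607 matched the GENCODE annotation used here, and the 1317 others held 0.247% of Smart-seq2 reads.

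Counts were scaled to CPM over genes, leaving out the 92 spike-ins. Genes entered the tests with a mean of at least 10 CPM in each Smart-seq2 library. log2 of the squared CV was set against a loess trend on the mean (span 0.5), and limma 3.58.1 (R 4.3.3) tested the residuals of the 2 Smart-seq2 libraries, with the 2 Smart-seq / C1 libraries sharing the estimate of spread. Libraries, never cells, were the replicates. Correlations (scipy 1.17.1) ran over genes also seen in at least 20 cells of each library. Comparisons with the other methods used cells thinned to 10000 counts, limma, and exact two-sided permutation of the 12 libraries. No doublet caller was run, and all cells stayed in, apart from cells under 1000 spike-in reads in the comparison with spike-ins. The variation fit of the full-length libraries and the rule for pairs were also run on simulated data. The comparison of genes with the other methods was not. The genes named are the 15 furthest above the trend, in each list the most variable, the 2 most connected and the highest, the most connected genes of the largest linked groups, the tightest pairs, and partners of these, and other genes were named after their values were seen. The members and lists were chosen with earlier results of these data known. Sequences are RefSeq promoter windows of GRCm38.p6, and gene coordinates are of GRCm38. Some genes of the lists are not reported here.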

Additional observations from a re-analysis of the deposited data

How the results depend on the processing

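Of 60 recomputed counts and library comparisons, 34 were rated the same. A count was rated so when it stayed within 1.5 times. A library comparison was rated so when its difference kept its sign and its side of the test threshold, whatever its size. The difference in the mean correlation among mitotic genes was 0.0566 with the main settings and 0.0232 at 5000 counts. More variable genes numbered 426 after thinning cells to 100000 reads, 1163 by the variance of log2(CPM + 1), 1273 with the 2 Smart-seq2 libraries fitted alone, and 101 to 108 with 1 of them left out. Less variable genes numbered 1482 with the 2 libraries alone and 203 to 217 with 1 left out. Positive pairs numbered 19273 at a threshold of 0.3, 427 at 0.5, 3647 by Pearson correlation, 1567 with cell covariates removed, 993 after thinning, and 21210 to 36344 in a single library. Negative pairs numbered 6010 at 0.3, 7 at 0.5, 466 without the far cells, 72 after thinning, and 13462 to 13480 in a single library. Against the other methods, 1 gene was higher in Smart-seq2 at 5000 counts, 4 with a mean of at least 0.5 counts, and 0 to 1 with 1 Smart-seq2 library left out. The difference in the likeness of cells was -0.0244 at 5000 counts and -0.000486 to 0.0159 with 1 library left out.

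Of the named genes, Lefty1, Trpm1, Plk2, mt-Rnr1 and Sgk1 kept their call under every alternative run. The mean residual of Sox2 was -0.38 by log2 variance, and -0.11 to 0.24 with 1 library left out, and that of Esrrb was -0.43 to 0.13. The cause of these changes was not tested, except that leaving out a library also leaves fewer samples. With the letter as a replicate block, 782 genes were more and 792 less variable, and 0 genes differed from the other methods. Under it Rhox5 (adjusted p = 0.156), Trh (0.0942), Dqx1 (0.0507), Chac1 (0.404), Myl9 (0.189) and Ndufa4l2 (0.125) were not called (limma). The differences of mean level between A and B correlated between methods at -0.0549 to 0.096. No pairing by letter was seen in these values. Differences of preparation also enter them, so they cannot decide whether libraries of a letter share a culture. Precision is limited by 2 libraries, by depth for genes near 10 CPM, and by reads that copies of a gene share.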
